A study of Chlamydomonas reinhardtii with 5 samples.

Results

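A set of 124 genes of Chlamydomonas reinhardtii had higher read counts at 50 Gy than at 6 Gy after both X- and γ-irradiation. They were found among 17742 genes counted by RNA-Seq. The counts were divided by median-of-ratios size factors, computed from genes above 0 in every library, and 1 was added. A gene was taken when its mean raw count was 50 or more, when its value at 50 Gy was at least 1.8 times that at 6 Gy after X-rays and again after γ-rays, and when both values at 50 Gy were at least 2 times the mock. The 15 ORFs that the study itself had selected were left out, and 8 of them met the same conditions. The steps from 6 to 50 Gy and the ratios of the 50 Gy libraries to the mock therefore chose these genes and are given below as a description, without a test.

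The cells were wild-type strain CC-125 in mid-exponential phase, a unicellular green alga grown with shaking in TAP medium under constant white light. The mock received 0 Gy. XR6 and XR50 received X-rays of 6 Gy over 22.2 min and of 50 Gy over 8.1 min at a higher tube current, after concentration into small tubes. GR6 and GR50 received γ-rays of 6 and 50 Gy from a cobalt source over 1 h, without concentration. Radiation type thus cannot be told apart from the handling of the cells and the dose rate, nor dose from dose rate after either radiation. Each condition had 1 library, so that no value has a replicate error. Intervals are exact Clopper-Pearson 95% intervals of the counts of single libraries and thus cover counting error alone. Reads copied by PCR were not traced to single molecules by identifiers, so that the intervals may be too narrow even for counting error. The time between irradiation and harvest for RNA is not given in the sources used here.

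Ionizing radiation breaks DNA directly and through reactive oxygen species formed from water. Cells answer with a DNA damage response (DDR), in which single-stranded DNA is coated by replication protein A, broken ends are held by the Ku complex, and genes of repair and of oxidative defence are transcribed. In land plants, the transcription factor SOG1 directs a large part of this response. In the reference table, 0 of the 17742 genes carried a symbol besides the ORF name, so that the functions of the 124 genes are unknown here and each is identified by its ORF name and its position in the NCBI v5.5 genome.

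Reads on genes numbered from 18364833 to 20330055 per library, and the size factors lay between 0.940 and 1.04, so that raw counts can be read across the libraries almost directly. Reads that did not align made up 32.2% in XR6 and between 37.7% and 41.8% in the other libraries. The share of gene counts that fell on the 124 genes rose from 0.0634% in the mock to 0.237% (XR6) and 0.501% (XR50) after X-rays and to 0.310% (GR6) and 1.25% (GR50) after γ-rays. Without the 3 most counted members, the shares were 0.0529%, 0.217%, 0.457%, 0.209% and 0.814% in the same order. GR6 lay above XR6 with these 3 genes and below it without them. In such bulk libraries, a change in the RNA per cell and in the number of cells that contain it cannot be told apart.

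Of the 10766 genes with a mean count of 50 or more, 249 (2.31%) had an X-ray step of 1.8 times or more and 1069 (9.93%) had such a γ-ray step. Both steps were found in 151 genes. The margin over the mock was missed by 19 of these, and after the 8 ORFs of the study's own selection were set aside, 124 genes (1.15%) remained. All 124 were covered by every comparison below. The opposite pattern, a fall by the same factor after both radiations, was seen in 14 genes. For the members, the median X-ray step was 1.18 on the log2 scale, a 2.26-fold rise, with a range from 0.85 to 2.88. The median γ-ray step was 1.94, a 3.83-fold rise, with a range from 0.94 to 5.02. Over all 10766 genes, the medians were 0.02 and -0.01. Across the members, the sizes of the 2 steps had a Spearman correlation of -0.0194 (n = 124 genes, which are not independent replicates). Over all 10766 genes, this correlation was -0.0503. The steps come from separate pairs of libraries. For the members, the rule truncated both steps, so that the correlations are not directly comparable.

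**Figure D1:**
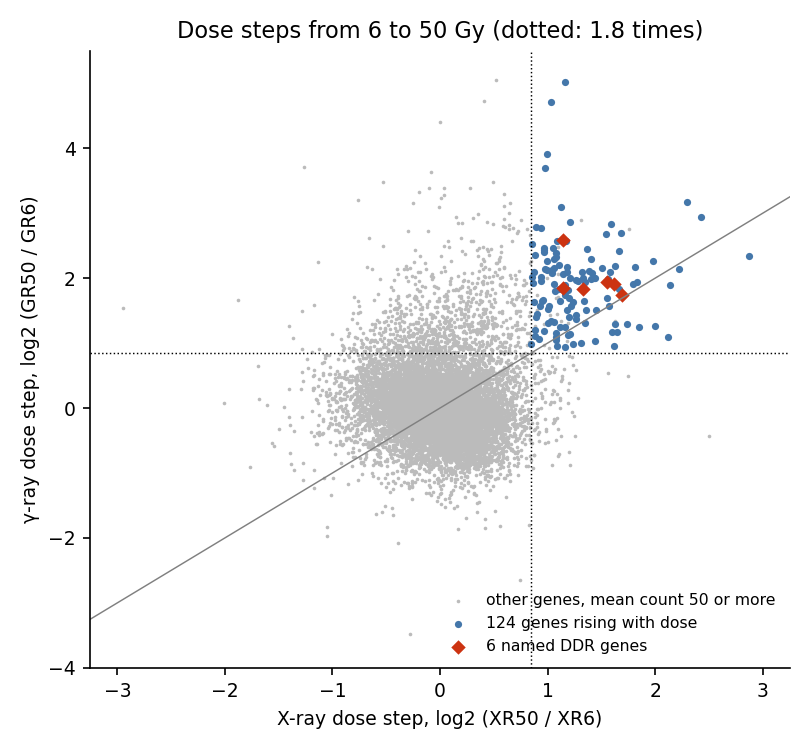
Dose step from 6 to 50 Gy on the log2 scale after X-rays (horizontal axis) and γ-rays (vertical axis), with 1 point per gene of mean count 50 or more. The dotted lines mark 1.8 times and the solid line marks equal steps; 103 of the 124 members lie above the solid line.

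The γ-ray step was the larger in 103 members and exceeded the X-ray step beyond counting error in 77. The X-ray step was larger beyond counting error in 3 members, where it was so in 3242 of all 10766 genes, and the difference was within counting error in 44. Those 3 genes were CHLRE_16g686846v5, described below, CHLRE_16g687100v5 (chromosome 16, 4698860 to 4701680) and CHLRE_01g047001v5 (chromosome 1, 6569358 to 6571907). The second had 38 and 163 counts after X-rays and 49 and 112 after γ-rays, against 12 in the mock. The last had 481 and 1436 counts after X-rays and 1019 and 2087 after γ-rays, against 228 in the mock, so that γ-rays gave the higher count at each dose although the X-ray step was larger. Over all 10766 genes, the γ-ray step was the larger beyond counting error in 31.6%. The rule required the same minimum of both steps, which 249 of all 10766 genes reached after X-rays and 1069 after γ-rays. Which step was the larger in a member is thus shaped by the selection. These counts of the members are a description and not directly comparable with those over all genes. The difference between the steps has no error beyond counting, since it is the interaction of dose and type with 1 library in each cell of the design. GR50 was the highest library for 86 members and XR50 for the other 38. The mock was the lowest library for 118. The order mock, GR6, XR6, XR50, GR50 was found in 43 members and the order mock, XR6, GR6, XR50, GR50 in 33. The rule placed XR50 above XR6, GR50 above GR6 and both above the mock. Only XR50 or GR50 could thus be the highest library of a member, and only the mock, XR6 or GR6 the lowest. The counts of highest and lowest libraries and of orders are therefore a description, given without shares over all genes.

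CHLRE_03g155350v5 (chromosome 3, 1927266 to 1932452) had the largest smaller step, which was the X-ray step. It had 93 counts in the mock, with 232 and 1215 after 6 and 50 Gy of X-rays and 2563 and 20867 after 6 and 50 Gy of γ-rays. Its X-ray step was 2.43 on the log2 scale (95% interval 2.23 to 2.64) and its γ-ray step was 2.95 (2.89 to 3.01). The count after 6 Gy of γ-rays was thus above that after 50 Gy of X-rays, an order found in 8 members.

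CHLRE_13g588900v5 (chromosome 13, 3668450 to 3673911) rose from 14 counts in XR6 to 106 in XR50 and from 24 in GR6 to 132 in GR50, with 5 in the mock. Its X-ray step of 2.88 was the largest of all members, with a wide interval of 2.16 to 3.88 at this depth. CHLRE_10g428950v5 (chromosome 10, 1515672 to 1519913) had 52 counts in the mock, against 284 in XR6 and 1358 in XR50, and 1435 in GR6 and 13688 in GR50. The steps of this gene were 2.30 after X-rays and 3.18 after γ-rays, and GR6 and XR50 were nearly level.

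Nearly equal responses to both radiations were seen in CHLRE_03g161450v5 (chromosome 3, 2714372 to 2716037). It had 19 counts in the mock, 122 and 106 in XR6 and GR6, and 556 and 495 in XR50 and GR50. Each dose gave close values whatever the radiation, with steps of 2.22 (1.95 to 2.53) after X-rays and 2.14 (1.84 to 2.46) after γ-rays. CHLRE_04g227750v5 (chromosome 4, 3455568 to 3463803) showed the same shape, with 90 and 79 counts at 6 Gy and 347 and 402 at 50 Gy of X-rays and γ-rays, against 9 in the mock. CHLRE_12g524350v5 (chromosome 12, 4801459 to 4804164) had steps of 2.13 after X-rays and 1.90 after γ-rays, but lay lower after γ-rays at each dose, with 73 and 40 counts in XR6 and GR6, and 314 and 160 in XR50 and GR50, against 21 in the mock. Both steps reached 2.5 times in 34 members and 4 times in 4 members.

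The members just inside the threshold had a smaller step of 1.801 times in CHLRE_10g447300v5, 1.804 times in CHLRE_12g559050v5 and 1.811 times in CHLRE_12g496850v5. The genes just outside it had 1.794 times in CHLRE_17g732900v5, 1.788 times in CHLRE_10g445650v5 and 1.784 times in CHLRE_11g481050v5. The last of these had 129 and 224 counts after 6 and 50 Gy of X-rays and 51 and 347 after 6 and 50 Gy of γ-rays, against 5 in the mock. Genes on either side of the threshold thus differed little, and the set has no sharp edge.

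The ratio of the 6 Gy libraries to the mock was left free by the rule, although it shares libraries with it and was capped by the required step. Most members were already above the mock at 6 Gy. The median log2 ratio to the mock was 1.68 in XR6 (3.20-fold) and 1.82 in GR6 (3.54-fold), and it was 3.16 in XR50 (8.96-fold) and 3.71 in GR50 (13.1-fold). At 6 Gy, 94 members were at least 2 times the mock in XR6 and 95 in GR6, where 5.54% and 5.92% of all 10766 genes were. Both held in 80 members (64.5%), called graded here, against 2.15% of all genes with the members included. Both ratios to the mock use the same mock library. A closer reference is the 214 other genes outside the study's selection that were also at least 2 times the mock in both 50 Gy libraries, of which 106 (49.5%) were graded. A γ-ray step of 1.8 times was reached in 167 of those 214 genes and an X-ray step in 13. Each of the 214 missed a required step, so that the rule shaped their values at 6 Gy as well. Their share of graded genes is thus not directly comparable with that of the members. The rise at 6 Gy, as a percentage of the rise at 50 Gy on the log2 scale, had a median of 56.2% after X-rays and 50.5% after γ-rays.

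**Figure D2:**
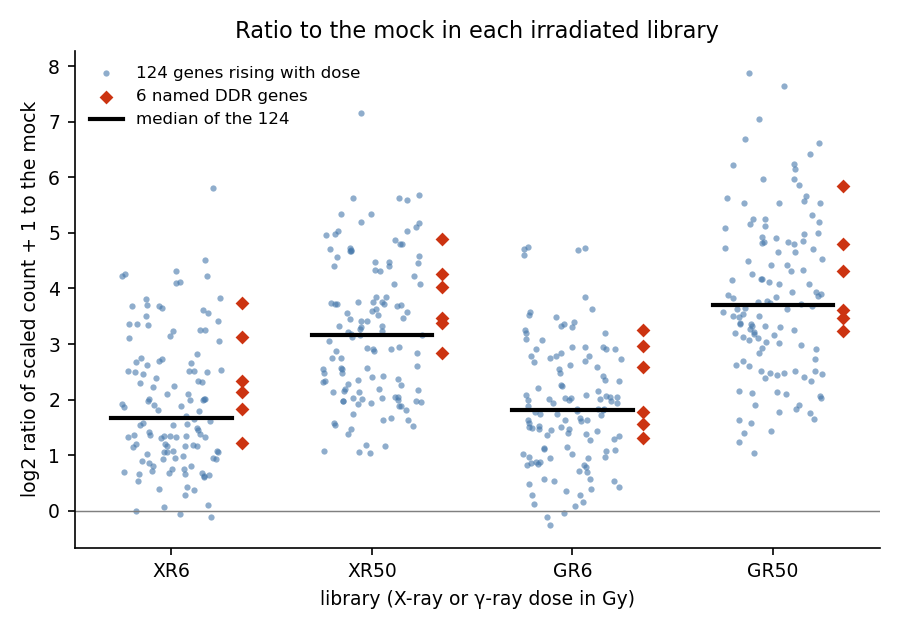
Log2 ratio of the scaled count plus 1 to the mock (vertical axis) in each irradiated library (horizontal axis), with 1 point per member, a bar at their median and diamonds for 6 named DDR genes. The medians of the members are 1.68 and 3.16 in XR6 and XR50, and 1.82 and 3.71 in GR6 and GR50.

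The graded members started low, with a median of 19 counts in the mock. In the mock, 20 members had 10 counts or fewer, and 19 of these were graded. In each irradiated library, 0 members had 10 counts or fewer. A mean count of 50 or more requires higher irradiated counts where the mock is low, and the ratio divides by the mock. The low start of the graded members is thus partly set by the selection. CHLRE_12g520900v5 (chromosome 12, 4409228 to 4411829) had the largest ratio at 6 Gy common to both radiations. It had 2 counts in the mock, with 179 and 444 after 6 and 50 Gy of X-rays and 82 and 336 after 6 and 50 Gy of γ-rays, so that its log2 ratio of 5.80 in XR6 has an interval from 4.47 to 9.40. The 4 irradiated libraries stood far from the mock, and X-rays gave the higher count at each dose.

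CHLRE_12g556905v5 (chromosome 12, 7371038 to 7374665) had 1 counts in the mock, against 39 in XR6 and 83 in XR50, and 53 in GR6 and 134 in GR50. Its log2 ratio to the mock was 4.73 in GR6, with an interval from 3.12 to 10.99. CHLRE_10g461550v5 (chromosome 10, 5820304 to 5827039) had 273 and 562 counts after 6 and 50 Gy of X-rays and 164 and 1036 after 6 and 50 Gy of γ-rays, against 10 in the mock. For this gene, X-rays gave the higher count at 6 Gy and γ-rays at 50 Gy.

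Better counted graded members had narrow intervals. CHLRE_02g094700v5 (chromosome 2, 2844430 to 2848855) had 39 counts in the mock, with 873 and 2179 after 6 and 50 Gy of X-rays and 1011 and 5832 after 6 and 50 Gy of γ-rays. This corresponds to 19.9 times the mock in XR6 and 24.2 times in GR6. CHLRE_13g563100v5 (chromosome 13, 147602 to 149308) had 205 counts in the mock, against 2906 in XR6 and 7219 in XR50, and 2131 in GR6 and 6384 in GR50. Its log2 ratio to the mock was 3.68 (3.48 to 3.90) in XR6 and 3.30 (3.10 to 3.52) in GR6. It was slightly higher after X-rays at both doses, beyond counting error.

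In 16 members, the ratio to the mock at 6 Gy was 8 times or more after both radiations. Beside the genes above, the best counted of these, singled out after their values were seen, were on chromosomes 16, 7 and 6. CHLRE_16g681657v5 (chromosome 16, 3574666 to 3581267) rose from 70 counts in the mock to 804 and 631 at 6 Gy and to 2103 and 2677 at 50 Gy of X-rays and γ-rays. CHLRE_07g325716v5 (chromosome 7, 1735857 to 1743015) rose from 65 counts to 942 and 655 at 6 Gy and to 2424 and 3376 at 50 Gy. In both genes X-rays gave the higher count at 6 Gy and γ-rays the higher count at 50 Gy. The same crossing was wider in CHLRE_06g278095v5 (chromosome 6, 3458614 to 3468801), which rose from 34 counts to 731 and 334 at 6 Gy and to 1363 and 2423 at 50 Gy. Its X-ray step was 0.94 and its γ-ray step 2.78. None of the 16 passed the test of the radiation type described below.

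A rise seen only at 50 Gy was rare, as it was among other genes raised at 50 Gy. The values in XR6 and GR6 were both within 1.5 times the mock in 3 members, against 56.8% of all 10766 genes. Of the 214 other genes raised in both 50 Gy libraries, which each missed a required step, 5 were flat. CHLRE_10g444500v5 (chromosome 10, 3416577 to 3418886) had 211 counts in the mock, 249 (XR6) and 269 (GR6) at 6 Gy, and 515 in XR50 and 551 in GR50. CHLRE_17g719701v5 (chromosome 17, 2898154 to 2900521) had 76, 80 and 103 counts in the mock, XR6 and GR6, and 212 and 223 in XR50 and GR50. The 50 Gy libraries were about level with each other in both genes. CHLRE_12g528150v5 (chromosome 12, 5228630 to 5230522) had 362 counts in the mock, 536 (XR6) and 532 (GR6) at 6 Gy, and 1204 in XR50 and 1240 in GR50. This gene was above the mock at 6 Gy beyond counting error, with log2 ratios of 0.43 (0.24 to 0.63) and 0.49 (0.29 to 0.68). The gene nearest to this group was CHLRE_14g619750v5, with log2 ratios of 0.66 in XR6 and 0.53 in GR6. The other 41 members lay between the graded and the flat ones. The ratio reached 2 times the mock in XR6 alone in 14 members and in GR6 alone in 15.

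**Figure D3:**
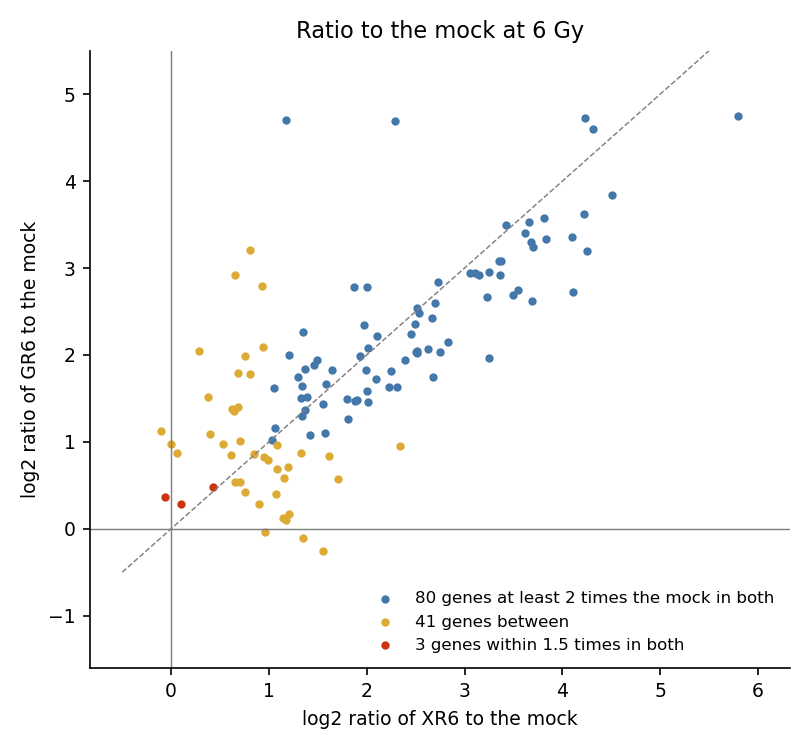
Log2 ratio to the mock in XR6 (horizontal axis) and GR6 (vertical axis), with 1 point per member and a dashed line at equal ratios. The 80 graded members spread along the line, and the 3 flat members lie near the origin.

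Radiation type was compared over the 4 irradiated libraries with an additive fit of dose and type over 14112 genes. The interaction leaves 1 residual degree of freedom per gene, and edgeR shares the estimate of error across genes. Its p values thus rest on that shared error and measure no spread between replicates. The rule did not use the contrast of radiation types, although it used the same libraries. Of the 124 members, 21 (16.9%) were higher and 1 was lower after γ-rays in edgeR's quasi-likelihood test (adjusted p under 0.05 after Benjamini-Hochberg correction over all genes), where 6.14% of all genes were higher and 3.87% lower. The median type effect was 0.03 over the members and 0.01 over all genes, on the log2 scale. The count higher after γ-rays fell to 13 (10.5%, against 3.76% of all genes) when library totals replaced TMM and to 11 (8.87%, against 4.13%) with the Wald test of DESeq2. With type fitted alone it was 1 (0.806%, against 1.99%). The dose steps, by which the members were chosen, then enter the error, so that these shares cannot be compared. Of the 21, 4 reached the mean count of 50 through the γ-ray libraries alone (CHLRE_12g556228v5, CHLRE_09g394658v5, CHLRE_10g423850v5 and CHLRE_16g692750v5), and their calls are no support for a difference. When the mean of 50 was required of the mock with each radiation type separately, a setting chosen after seeing the data, 17 of 110 members (15.5%) were higher, against 6.96% of all genes. The 102 members that did not pass are not shown to be alike after both radiations, given 1 residual degree of freedom per gene and no replicates.

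The 21 genes had type effects from 0.91 to 3.99 on the log2 scale, with a median of 1.63. At 6 Gy, their median log2 ratio to the mock was 0.69 in XR6 and 1.78 in GR6, and 7 of them were graded. For the 103 remaining members, these medians were 2.002 and 1.83. GR50 was above XR50 beyond counting error in all 21 and GR6 above XR6 in 18. These values come from the libraries on which the calls were made and describe the called genes without further support.

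CHLRE_03g155350v5, described above, had a type effect of 3.79 (standard error 0.328, adjusted p = 1.83e-27, edgeR). GR6 was 11.5 times XR6 and GR50 was 16.5 times XR50, so that the difference was present at each dose. CHLRE_10g428950v5 had a type effect of 2.84 (standard error 0.320, adjusted p = 4.16e-16, edgeR), with 5.28 times at 6 Gy and 9.70 times at 50 Gy. With type fitted alone, the adjusted p values of these genes were 0.0677 and 0.118 (edgeR), the highest over their alternatives.

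CHLRE_12g556228v5 (chromosome 12, 9684884 to 9688337) had 11 and 22 counts after 6 and 50 Gy of X-rays and 54 and 750 after 6 and 50 Gy of γ-rays, against 6 in the mock. Its X-ray step of 0.98 had an interval from -0.06 to 2.24 and was the only step among the members within counting error. This gene reached the mean count of 50 through the γ-ray libraries alone, so that its type effect of 3.99 (standard error 0.458) is given as a description. The most counted member, CHLRE_16g688550v5 (chromosome 16, 3658366 to 3660578), had 1668 counts in the mock, with 3203 and 7036 after 6 and 50 Gy of X-rays and 16160 and 48775 after 6 and 50 Gy of γ-rays. Both γ-ray libraries of this gene exceeded XR50, and its type effect was 2.57 (standard error 0.305, adjusted p = 1.55e-14, edgeR). It was also the gene that passed with type fitted alone.

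Further genes among the 21, named after their values were seen, had log2 ratios to the mock from 0.06 to 0.61 in XR6. CHLRE_10g465050v5 (chromosome 10, 6289321 to 6293862) had 67 and 121 counts after X-rays and 219 and 1596 after γ-rays, against 50 in the mock, with a type effect of 2.75 (standard error 0.382). CHLRE_17g731350v5 (chromosome 17, 4356224 to 4360253) had 410 and 856 counts after X-rays and 866 and 4226 after γ-rays, against 288 in the mock, with a type effect of 1.70 (standard error 0.324). In both genes GR6 exceeded XR50, by a small margin in the latter. CHLRE_12g487200v5 (chromosome 12, 1509118 to 1512976) was level with the mock in XR6, with 473 and 543 counts, and had 1039 in XR50 but 912 and 4248 in GR6 and GR50. The log2 ratio of this gene to the mock was 0.06 in XR6 and 0.88 in GR6. CHLRE_02g085701v5 (chromosome 2, 1662833 to 1667748) differed between the radiations at 50 Gy, with 476 counts in XR50 and 2273 in GR50, more than at 6 Gy, with 224 in XR6 and 252 in GR6 and 133 in the mock.

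For some of the 21 genes, the difference lay mainly at 50 Gy. CHLRE_11g477200v5 (chromosome 11, 2758885 to 2763754) had 250 counts in the mock, against 255 in XR6 and 554 in XR50, and 575 in GR6 and 19667 in GR50. GR50 stood 32.4 times above GR6 and 34.1 times above XR50, the largest such ratios among the members. The 4 members with the largest excess of the γ-ray step over the X-ray step were this gene, CHLRE_12g556228v5 and 2 genes singled out after their values were seen. CHLRE_09g394658v5 (chromosome 9, 4283645 to 4287700) had 44 counts in GR6 and 1248 in GR50, against 42 in XR6 and 84 in XR50. CHLRE_11g467737v5 (chromosome 11, 1458766 to 1468886) had 115 and 1849 counts in GR6 and GR50, against 81 and 157 in XR6 and XR50. The additive fit describes such genes poorly, since their type effect depends on dose, and the calls of CHLRE_11g477200v5, CHLRE_09g394658v5 and CHLRE_11g467737v5 were lost with DESeq2, with adjusted p values of 0.226, 0.587 and 0.430.

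CHLRE_12g553700v5 (chromosome 12, 7767473 to 7770889) was also higher after γ-rays, with 1328 and 2488 counts in XR6 and GR6, and 2715 and 13734 in XR50 and GR50, against 689 in the mock. CHLRE_02g094750v5 (chromosome 2, 2849799 to 2854344) had the smallest type effect of the 21, 0.91 (standard error 0.296, adjusted p = 0.0259, edgeR). Its counts were 489 in the mock, 1963 and 4018 in XR6 and XR50, and 3530 and 7912 in GR6 and GR50, so that its dose steps were equal at 1.08 and 1.09. Its call was lost with library totals, with an adjusted p of 0.0541, within a range from 0.0338 to 0.274 over the alternatives.

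The member lower after γ-rays was CHLRE_09g395213v5 (chromosome 9, 4368090 to 4369269). It had 550 and 1072 counts after 6 and 50 Gy of X-rays and 149 and 389 after 6 and 50 Gy of γ-rays, against 170 in the mock. GR6 did not rise above the mock, while XR6 was 2.93 times the mock. The type effect was -1.67 (standard error 0.346, adjusted p = 6.46e-05, edgeR), and the call was lost with type fitted alone, with an adjusted p of 0.102. CHLRE_16g686846v5 (chromosome 16, 7460958 to 7468474) had the next lowest ratio of GR50 to XR50, with 107 and 69 counts in XR6 and GR6, and 376 and 175 in XR50 and GR50, against 15 in the mock. Its type effect of -0.88 did not pass (adjusted p = 0.102, edgeR).

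**Figure D4:**
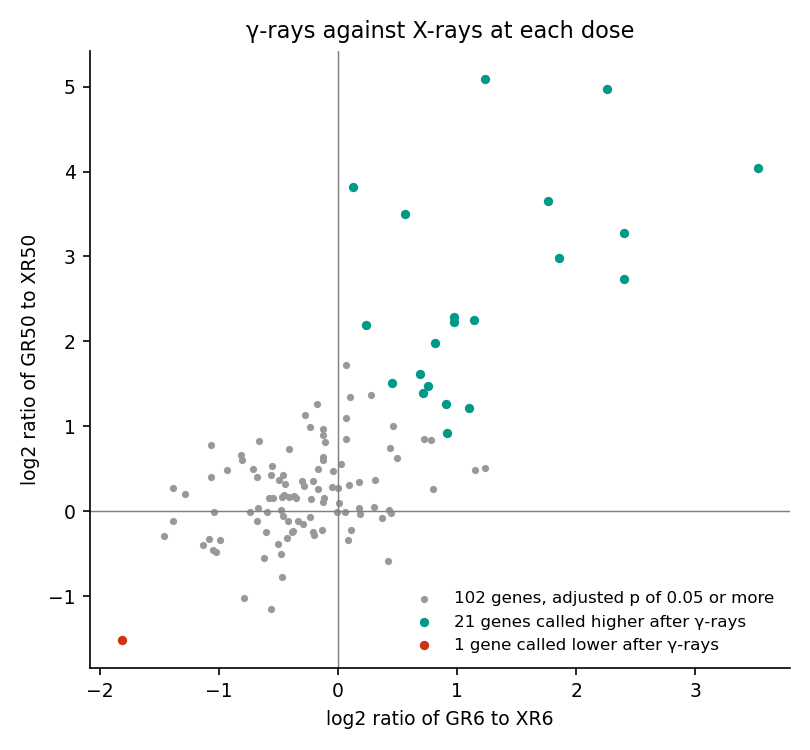
Log2 ratio of GR6 to XR6 (horizontal axis) and of GR50 to XR50 (vertical axis), with 1 point per member, coloured by the call of the radiation type effect. The 21 genes called higher after γ-rays lie at the upper right, and the gene called lower lies at the lower left.

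At each dose taken alone, GR6 was at least 2 times XR6 in 11 members (6.42% of all 10766 genes) and 0.5 times XR6 or less in 12 (5.82%). GR50 was at least 2 times XR50 in 26 members (11.2% of all genes) and 0.5 times XR50 or less in 3 (5.77%). The γ-ray library was at least 2 times the X-ray library at both doses in 9 members, for which no share over all genes was computed. All 9 were among the 21, which were called on the same libraries, so that this adds no support. At 6 Gy, the median log2 ratio of GR6 to XR6 was -0.17, and at 50 Gy that of GR50 to XR50 was 0.32. GR6 lay below XR6 and GR50 above XR50 in 43 members, in 21 of them beyond counting error at both doses. The reverse was found in 7 members. Shares over all genes were not computed for these counts. The first crossing needs a γ-ray step larger than the X-ray step, and the rule used both steps, so the counts are a description. Across the members, the ratios at 6 and 50 Gy, which come from separate libraries, had a Spearman correlation of 0.599 (n = 124 genes). Over all 10766 genes it was 0.452. The rule truncated both dose steps, and their difference equals that between these ratios. The value of the members is thus shaped by the selection and not directly comparable.

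**Figure D5:**
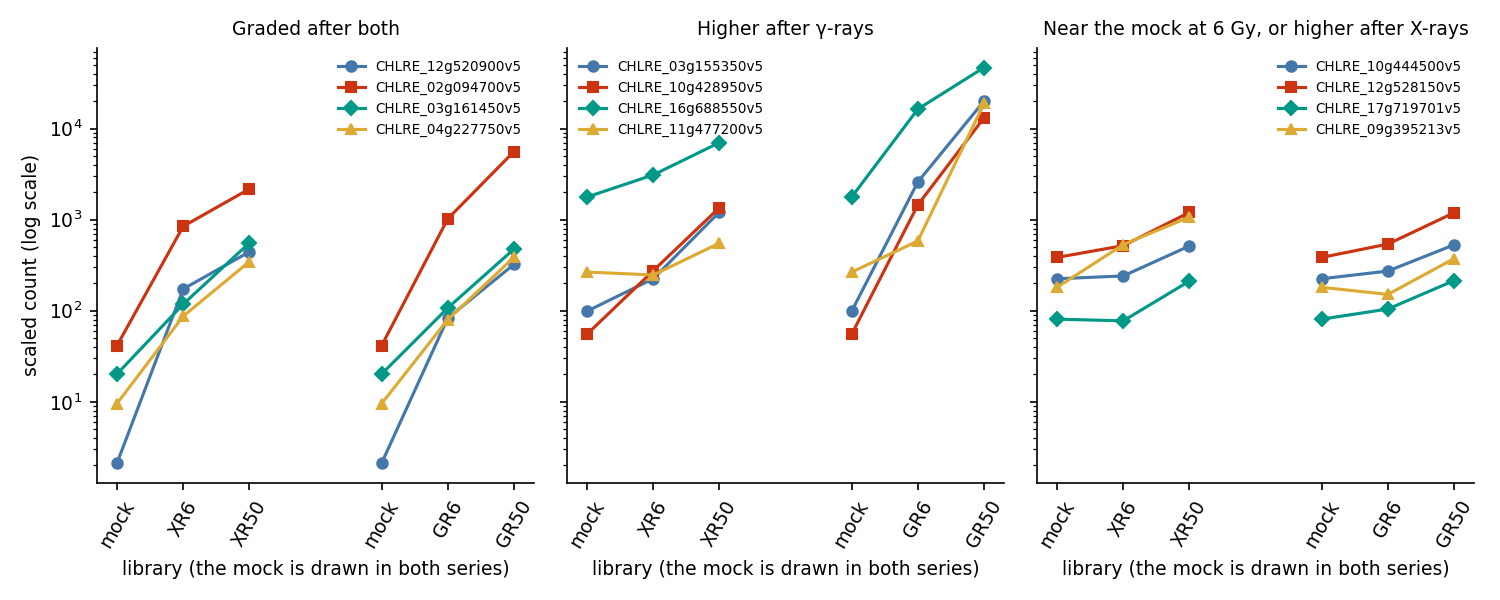
Scaled counts on a log axis (vertical) of 12 members in the mock and in the X-ray and γ-ray libraries (horizontal), in 3 panels with 1 line per gene and radiation. CHLRE_12g520900v5 starts lowest in the mock, and CHLRE_16g688550v5 reaches the highest count in GR50.

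A set of 6 named DDR genes, also measured by RT-qPCR and chosen on these libraries, met the same rule and serves as a reference. They encode the replication protein A subunits CrRPA30 and CrRPA70A, the flap nuclease CrFEN1, the end-binding protein CrKU, the cysteine synthase CrOASTL2 and the glutathione S-transferase CrGSTS2. Their median log2 ratio to the mock was 2.24 and 3.75 after 6 and 50 Gy of X-rays, and 2.18 and 3.96 after γ-rays. The members closest to their mean, singled out after their values were seen, were CHLRE_10g443801v5 (chromosome 10, 3338703 to 3343358) and CHLRE_03g203150v5 (chromosome 3, 7787730 to 7793881), both at a root mean square distance of 0.223 on the log2 scale over the 4 libraries. CHLRE_10g443801v5 had 67 and 149 counts after 6 and 50 Gy of X-rays and 46 and 174 after γ-rays, against 10 in the mock. CHLRE_03g203150v5 had 61 and 114 counts after X-rays and 36 and 157 after γ-rays, against 7 in the mock. Both were graded. In CHLRE_03g203150v5, XR6 lay above GR6 and GR50 above XR50 beyond counting error, whereas in CHLRE_10g443801v5 both differences were within it.

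Position in the genome was not used by the rule. All 124 members lay on the numbered chromosomes. Chromosome 12 held 23 of them (2.04% of its genes with a mean count of 50 or more). Chromosome 10 held 16 (2.36%) and chromosome 16 held 15 (1.78%). Chromosome 15 held 0 of 105 such genes and chromosome 9 held 2 of 729, where the share over all 10766 such genes was 1.15%. These chromosomes were singled out after their values were seen, and differences between chromosomes were not tested. The median gene span was 4724 bp in the members and 4866 bp over the 10766 genes. Next to another member in the order of genes were 25 members (20.2%). Among all 17470 genes on the numbered chromosomes, 219 that were neither members nor in the study's selection also lay next to a member. The share of all genes next to a member was not computed, and clustering was not tested. These 25 members formed 13 neighbouring pairs, of which 12 were less than 1000 bp apart. Their median gap was 116 bp, against 130 bp between all neighbouring genes. Strand is missing from the reference table, and whether reads were counted by strand is not given in the sources used here, so that reads from the ends of such close genes may be shared between them, and this was not tested. None of the pairs overlapped, and 1 member, CHLRE_06g297650v5, overlapped another gene, by 407 bp.

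The closest pair was part of the single run of 3 members, on chromosome 12. CHLRE_12g541050v5 (9299243 to 9302658), CHLRE_12g541000v5 (9302743 to 9306498) and CHLRE_12g540950v5 (9306553 to 9310218) were separated by gaps of 84 and 54 bp. CHLRE_12g541050v5 had 28 counts in the mock, against 180 in XR6 and 364 in XR50, and 122 in GR6 and 487 in GR50. CHLRE_12g541000v5 had 10, 113, 324, 88 and 303 counts in the same order, and CHLRE_12g540950v5 had 21, 71, 210, 72 and 172. All 3 genes were graded, and the gene in the middle rose most against the mock, by 27.9 times in XR50 and 25.1 times in GR50.

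On chromosome 16, CHLRE_16g692800v5 (517643 to 521704) and CHLRE_16g692750v5 (521763 to 523494) lay 58 bp apart. The first had 582 and 1128 counts after 6 and 50 Gy of X-rays and 2015 and 9226 after 6 and 50 Gy of γ-rays, against 277 in the mock, and the second had 17, 25, 56, 39 and 180. The first was called higher after γ-rays, with a type effect of 2.42 (adjusted p = 8.00e-12, edgeR). The second had a type effect of 1.22, given as a description because it reached the mean count of 50 through the γ-ray libraries alone. On chromosome 12, CHLRE_12g556905v5, described above, lay 62 bp from CHLRE_12g556911v5 (7374728 to 7386869), which had 40 counts in the mock, with 457 and 920 after 6 and 50 Gy of X-rays and 361 and 2099 after 6 and 50 Gy of γ-rays. Their γ-ray steps were unlike, at 1.25 (0.79 to 1.75) and 2.46 (2.30 to 2.63). The graded CHLRE_02g094700v5 and CHLRE_02g094750v5 were also neighbours, with a gap of 943 bp. The other 8 pairs had gaps from 94 to 2561 bp, and 3 of them are described here. CHLRE_03g161450v5 lay 120 bp from CHLRE_03g161500v5, which had 13 counts in the mock, 192 and 599 after X-rays and 168 and 1156 after γ-rays, and the latter rose more after 50 Gy of γ-rays. The flat CHLRE_10g444500v5 lay 116 bp from CHLRE_10g444550v5, which had 227 counts in the mock, 390 and 953 after X-rays and 611 and 2590 after γ-rays. The flat CHLRE_12g528150v5 lay 100 bp from CHLRE_12g528200v5, which had 16 counts in the mock, 260 and 527 after X-rays and 211 and 1091 after γ-rays. Partners in these last 2 pairs thus differed in their values at 6 Gy, and for CHLRE_12g528200v5 the log2 ratio to the mock was 3.81 in XR6 and 3.58 in GR6, against 0.43 and 0.49 in its partner.

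Next to an ORF of the study's selection were 2 members, both singled out after their values were seen. CHLRE_10g423850v5 (chromosome 10, 867809 to 873042) lies 198 bp from CrKU and had 20 counts in the mock, against 36 in XR6 and 85 in XR50, and 75 in GR6 and 206 in GR50. CrKU had 44, 428, 920, 365 and 1387 counts in the same order. At 6 Gy, CrKU did not differ between the radiations beyond counting error, whereas its neighbour was higher after γ-rays beyond it. This neighbour reached the mean count of 50 through the γ-ray libraries alone, so that its difference is given as a description. CHLRE_06g263100v5 (chromosome 6, 1869679 to 1873570) lies 183 bp from CrEFP2, which encodes a mitochondrial elongation factor P, and had 415 and 1142 counts after 6 and 50 Gy of X-rays and 322 and 1514 after 6 and 50 Gy of γ-rays, against 108 in the mock. CrEFP2 had 23, 66, 138, 52 and 232 counts, with the same order of libraries, although its XR6 and GR6 values did not differ beyond counting error.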

How the data were processed

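RNA-Seq counts were analysed for 5 libraries, 1 per condition. Per the labels and the paper's methods, the authors trimmed reads with Trimmomatic 0.36, mapped them with HISAT2 2.2.1 and counted them with HTSeq-count 0.11.3, and the deposited values are raw counts per gene. Whether a column pools the biological replicates named in the methods is not stated. The 5 counters of unassigned reads (44.1% to 49.7% of the listed reads, and 50.7% in GR6) were left out. The members and lists were chosen with earlier results of these data known.

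All 17742 ORF names matched the RefSeq gene table. Size factors, ratios and exact intervals were computed with Python 3.11.15, pandas 2.3.3, numpy 2.4.6 and scipy 1.17.1. Log2 ratios use scaled counts plus 1, and intervals use the raw counts. Radiation type was tested with glmQLFit and glmQLFTest of edgeR 4.0.16 under R 4.3.3, with TMM, filterByExpr by dose and a Benjamini-Hochberg adjusted p of 0.05, and the script was tested on simulated data. The alternatives used DESeq2 1.42.0, other scalings, filters, added counts and thresholds. Members were named for the largest smaller step, the highest counts, the largest and smallest ratios at 6 Gy, the extremes of GR50 to XR50, the lowest adjusted p of the type effect, closeness to a neighbouring member and closeness to the threshold, with exceptions stated. Promoter motifs, proteins and lists by keyword were not analysed here. Of the named DDR genes that the study measured by RT-qPCR, 1 is not reported here.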

Additional observations from a re-analysis of the deposited data

Results flagged for a closer look

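In 6 members, the log2 ratio to the mock had opposite signs in XR6 and GR6. The difference was not tested, and the 2 values of a gene share the mock. The ratio was positive in XR6 and negative in GR6 for CHLRE_02g113652v5 (0.96 and -0.033), CHLRE_09g395213v5 (1.55 and -0.26) and CHLRE_12g559050v5 (1.35 and -0.11). It was negative in XR6 and positive in GR6 for CHLRE_11g477200v5 (-0.11 and 1.13), CHLRE_11g467738v5 (-0.0037 and 0.97) and CHLRE_17g719701v5 (-0.061 and 0.37). The positive value of the first 3 genes and of CHLRE_11g477200v5 and CHLRE_11g467738v5 was beyond counting error, whereas every negative value was within it. In 0 genes were both values beyond counting error. For CHLRE_17g719701v5 neither value was.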

How the results depend on the processing

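The number of members was 121 with TMM factors, 97 with library totals, 158 with a mean count of 10 or more, 180 with a step of 1.5 times and 143 without the margin over the mock. It moved most to 197 without a filter on the mean count and to 34 with a step of 2.5 times. With library totals, 94 of the 97 genes were among the 124. Library totals moved the median log2 ratio of all genes to the mock by 0.21 (XR6), 0.05 (XR50), 0.09 (GR6) and 0.07 (GR50). The members higher after γ-rays fell from 21 to 13 with library totals, to 11 with the Wald test of DESeq2 and to 1 with type fitted alone, where the member lower after γ-rays was lost as well (0 genes, with 14 members at an unadjusted p under 0.05 in either direction). It was 17 when a mean count of 50 was required with the mock in each radiation type, an alternative chosen after seeing the data. All genes called under these alternatives were among the 21. With type fitted alone the dose steps enter the error, and the cause of the other losses was not tested. The counts at 6 Gy, the counts of GR against XR and the medians kept their direction under both other scalings and with an added count of 10, and the counts stayed within 1.5 times. With an added count of 10, the log2 ratio of CHLRE_12g520900v5 to the mock was 3.92 in XR6 and 2.94 in GR6, and that of CHLRE_12g556905v5 was 2.11 and 2.53. No sign of a named value beyond counting error was reversed. No paired analysis was possible because each condition has 1 library and the labels give no replicate numbers, and leaving out a library leaves no residual degree of freedom in the additive fit. Depth limits the members with few counts in the mock, of which 3 had 3 counts or fewer.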

Other observations

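Genes next to a member that were not members themselves and not in the study's selection numbered 219, and 127 of them had a mean count of 50 or more. A γ-ray step of 1.8 times or more was found in 26 of the 127 (20.5%), against 9.93% of all 10766 genes. An X-ray step of that size was found in 2 of them (1.57%), against 2.31%. The shares over all genes are of 1069 and 249 genes. These include the 124 members and 8 ORFs of the study's selection, which passed both steps. The neighbours leave both groups out, so that their shares are not directly comparable with those over all genes. Shares over all genes without these groups were not computed. The median steps of these neighbours were 0.12 after X-rays and 0.09 after γ-rays on the log2 scale. These shares are descriptions of 1 library per condition.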
